A study of Caenorhabditis elegans with 2 samples.

Results

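The genes that control the passage of C. elegans cells from G1 into S phase were lin-35, efl-1, dpl-1, cki-1, cki-2, cyd-1, cdk-4, cye-1 and cdk-2. They are 9 of the 19973 protein-coding genes on the 6 nuclear chromosomes and were chosen by name, with earlier results of these data known. Their promoters were searched for binding of the GFP-tagged protein encoded by B0310.2 in early embryos. All chromatin came from a single group, strain OP642, in which a transgene (wgIs642) supplies B0310.2 protein with GFP and FLAG at its C-terminus and the background carries the unc-119 allele tm4063. Embryos of mixed sex were collected by bleaching at 0 h after synchronisation, and whole embryos were used, so the cells in which binding took place are not resolved. The promoter that drives the transgene is not given in the sources used here. Sheared chromatin was precipitated with an antibody to GFP and sequenced in 2 biological replicates. With no second condition, and with genes chosen on these values, what follows is a description with no test.

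Cells leave G1 when cyclin-dependent kinases are activated by their cyclins. Cyclin D (CYD-1) with CDK-4 acts early in G1, and cyclin E (CYE-1) with CDK-2 drives entry into S phase. CKI-1 and CKI-2 belong to the p27 family of kinase inhibitors. LIN-35, the retinoblastoma homologue, binds the E2F transcription factor formed by EFL-1 and DPL-1 and represses its targets until cyclin-dependent kinases release it. The first divisions of the worm embryo alternate between DNA synthesis and mitosis without gap phases, and G1 control becomes prominent later in development.

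In the WBcel235 annotation (build ce11) the retinoblastoma homologue is encoded by lin-35 (WBGene00003020, chrI:5807709-5815637, plus strand). The E2F subunits are encoded by efl-1 (WBGene00001161, chrV:16958590-16965675, minus strand) and dpl-1 (WBGene00001061, chrII:9169910-9172565, plus strand). The inhibitor genes are cki-1 (WBGene00000516, chrII:7811240-7812105) and cki-2 (WBGene00000517, chrII:7816499-7820281), both on the plus strand. Cyclin D and its kinase are encoded by cyd-1 (WBGene00000870, chrII:12980591-12993117, plus strand) and cdk-4 (WBGene00000406, chrX:13515856-13518911, minus strand). Cyclin E and its kinase are encoded by cye-1 (WBGene00000871, chrI:6780799-6784397) and cdk-2 (WBGene00019362, chrI:3410013-3416368), both on the plus strand.

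The strongest signal at these promoters was at lin-35 and cki-1, the genes for the retinoblastoma homologue and for a kinase inhibitor. A promoter was taken as the window from 1000 bp upstream to 300 bp downstream of an annotated 5' end, and a region was counted there when its summit lay inside. Of the 9 genes, 2 had a peak of the authors' optimal list (the 642 peaks kept after thresholding on the irreproducible discovery rate, IDR), against 1.85% of all protein-coding genes. Among the 642 strongest regions of replicate 1 alone the count was 1 (cki-1), against 1.51% of all genes. Among those of replicate 2 alone it was 3 (lin-35, cki-1 and cye-1), against 1.91%. In the list of 30000 regions called on the pooled replicates, background regions included, 8 of the 9 had a region in the window, against 38.3% of all genes. The corresponding counts were 7 of 9 against 37.9% in replicate 1 and 7 of 9 against 38.4% in replicate 2. The genes were picked with these values in view, and nothing is read from the differences.

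The 9 promoters are ordered here by the pooled rank of their strongest region, where rank 1 is the strongest signal. At the top, lin-35 ranked 262 and cki-1 ranked 352, and cye-1 followed at 662, which is 20 ranks beyond the last optimal peak. Next came efl-1 at 1881, cdk-4 at 3522 and cyd-1 at 3619. At the bottom, dpl-1 ranked 28807 and cki-2 ranked 28925, near the end of the list, and cdk-2 had no pooled region. Where a gene had any region, the median best rank over all 7659 such genes was 11818. The optimal list ended at a signal of 139.6 and the next region had 139.5, each with a −log10 q of 1.99, so the border falls between near-equal values. All 642 optimal peaks were within the first 642 pooled ranks, and 398 of them overlapped one of the 642 strongest regions of each replicate.

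**Figure D1:**
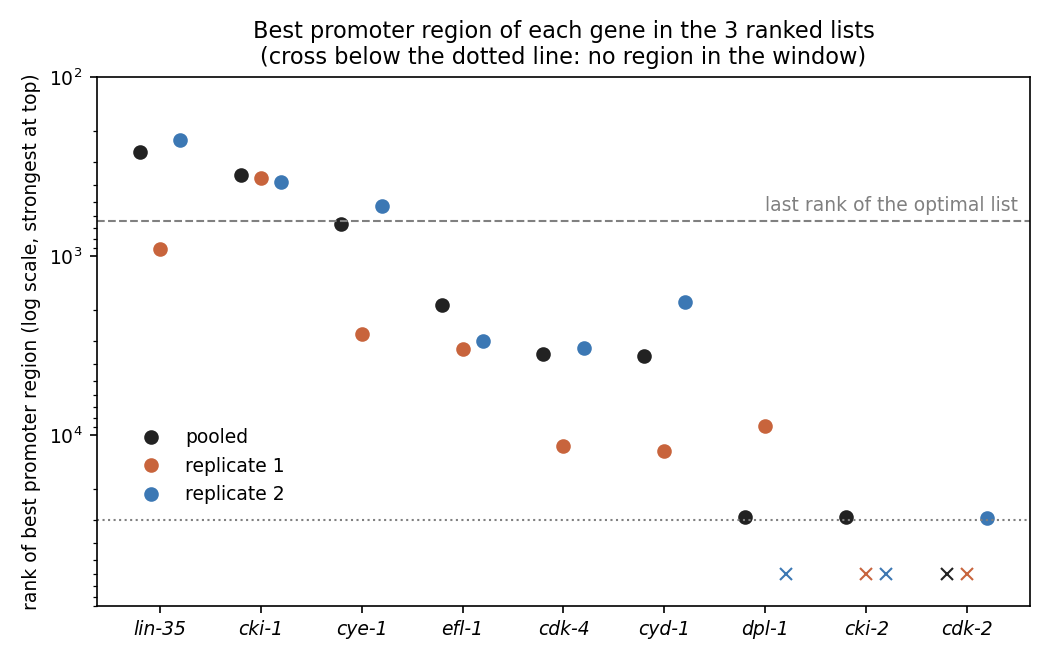
Rank of the strongest promoter region of each gene (x axis) in the pooled list and in the list of each replicate (y axis, log scale, strongest at the top). The dashed line is rank 642, the end of the optimal list, and crosses mark genes with no region in that list; cki-1 lies above the dashed line in all 3 lists, and lin-35 lies above it in the pooled list and replicate 2 only.

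Among all 19973 genes, 151 (0.756%) had a pooled promoter region as strong as that of lin-35 or stronger, and 207 (1.04%) did so for cki-1. The matching figures were 382 genes (1.91%) for cye-1, 948 (4.75%) for efl-1, 1559 (7.81%) for cdk-4 and 1599 (8.01%) for cyd-1. For dpl-1 and cki-2 they were 37.2% and 37.3%, which is close to the share of genes with any pooled region at all. These promoters therefore covered nearly the whole range that a gene with a region could take.

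**Figure D2:**
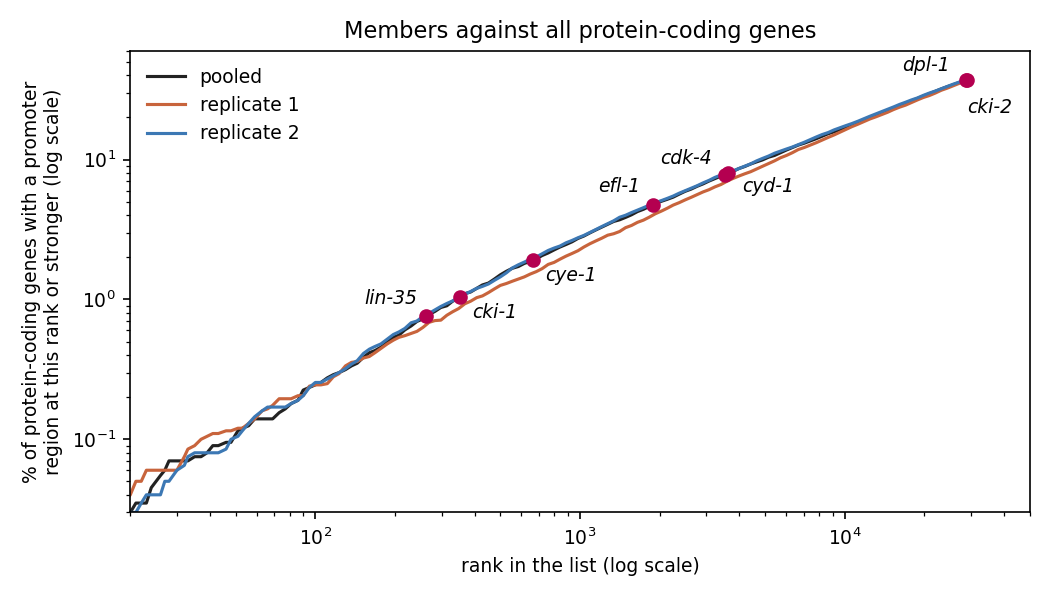
Share of protein-coding genes whose strongest promoter region lay at or above a given rank (both axes log scale), for the pooled list and each replicate. Points are the 8 genes with a pooled promoter region, from lin-35 at rank 262 (0.756% of genes) to cki-2 at rank 28925 (37.3%).

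The lin-35 peak lay on chromosome I (ce11, chrI:5807254-5807729) with its summit at 5807492, 217 bp upstream of the annotated 5' end and between protein-coding genes. Its signal was 205 in the pooled list, with a −log10 q of 2.47. In replicate 1 the region had a signal of 44.8 and rank 914, and in replicate 2 a signal of 155 and rank 225. Signals of different lists have no stated common scale, so only the ranks are set side by side. Replicate 2 therefore placed lin-35 well inside the length of the optimal list, and replicate 1 placed it outside. The summits of the replicates were 5 bp apart, against a median of 29 bp for the genes with an optimal promoter peak.

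A neighbour shared the lin-35 peak. The 5' end of vps-51, which encodes a vesicle-tethering subunit, lay 418 bp away on the opposite strand, and the same summit was 201 bp upstream of it. A second vps-51 5' end was 251 bp from the summit, and the lin-35 5' end was 217 bp from it. Which gene was closer thus depends on the 5' end used, and the peak cannot be assigned to either gene alone. Such sharing was common, since 80 of the 297 optimal peaks in protein-coding promoters (26.9%) lay in the windows of 2 or more genes. No tRNA, tRNA pseudogene, snoRNA or snRNA gene lay within 200 bp, the nearest being 18228 bp away. A second, weaker region sat 206 bp from the first in the pooled list (rank 24394) and 203 bp away in replicate 2 (rank 2681). Summits closer than 199 bp did not occur in any list, and 6.78% of the gaps between neighbouring pooled summits were 220 bp or less. Of the bases at the summit (101 bp), 35.6% were G or C, below the median of 49.5% for the 642 optimal peaks.

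The E2F genes differed from each other. At efl-1 (E2F subunit) the pooled region had a signal of 99.7 and a −log10 q of 0.99, with its summit 126 bp upstream of the 5' end. It ranked 3329 in replicate 1 (signal 33.5) and 3004 in replicate 2 (62.8), and the summits of the replicates were 37 bp apart. Both replicates therefore put efl-1 at a like rank, below the optimal list but within the top 7.01% of genes. The gene on the other side, fbxa-90, had its 5' end 1013 bp from the summit, just outside the window. At dpl-1 (DP subunit) the pooled region had a signal of 39.6 and lay 16 bp downstream of the 5' end, in the 5' UTR and inside an intron of the oppositely transcribed gene T23G7.2. Replicate 1 ranked it 8934 (signal 25.8), and replicate 2 had no region in the window. EFL-1 and DPL-1 act as a heterodimer, yet only the promoter of efl-1 held a region in each replicate.

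The efl-1 upstream sequence is shown because it holds an E2F-type string inside the pooled region. It is the 250 bp before the annotated 5' end (chrV:16965676-16965925, minus strand, WBcel235 assembly from RefSeq). Capitals mark matches on either strand to 8 strings. The E2F-type strings were TTCCCGC (reverse complement GCGGGAA), a form with TTGGCGC, another with TTCGCGC, which can overlap the string GCGCGC, and last the form TTGCCGC (reverse complement GCGGCAA). The string TTTGAA (reverse complement TTCAAA) is the core of the cell cycle homology region bound by LIN-54. The remaining strings were AGAGCG (reverse complement CGCTCT), the string GCGCGC itself, and the string CGAACC. They were in 14.5%, 9.5% and 14.8% of the 101 bp windows at the optimal summits, and in 3.01%, 1.63% and 2.51% of those at the pooled summits.
efl-1: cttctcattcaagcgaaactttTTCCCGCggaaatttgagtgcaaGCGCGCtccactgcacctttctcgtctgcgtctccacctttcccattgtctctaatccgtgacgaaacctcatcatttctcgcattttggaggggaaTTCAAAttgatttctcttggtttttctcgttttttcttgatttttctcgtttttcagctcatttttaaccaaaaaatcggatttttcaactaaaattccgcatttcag
The string TTCCCGC was centred 225 bp upstream of the 5' end and 99 bp from the summit. A GCGCGC match was 77 bp from the summit and a TTTGAA match 21 bp from it. The sequence ends in AG, the form of a splice acceptor. Many worm messages receive a spliced leader, so that an annotated 5' end can be an acceptor site and not the place where transcription starts. An AG preceded the outermost 5' end of 5 of the 9 genes (lin-35, efl-1, dpl-1, cki-1 and cdk-4), against 27.6% of all protein-coding genes, and distances at these 5 are from such a point.

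Binding at the kinase inhibitor genes was uneven although they are neighbours on chromosome II. The cki-1 peak (chrII:7810819-7811294) had its summit at 7811057, 183 bp upstream of the 5' end, with a pooled signal of 177 and a −log10 q of 2.47. It ranked 369 in replicate 1 (signal 57.4) and 386 in replicate 2 (119.9), with summits 34 bp apart. Of the 9 genes, cki-1 was the one whose promoter region lay within the first 642 ranks of both replicates. No other protein-coding gene had a 5' end within 1000 bp of the summit, and the nearest small RNA gene was 16809 bp away. A weaker region lay 201 bp from the first in the pooled list, centred 18 bp inside the gene (signal 84.0, rank 3622). It recurred at rank 13448 in replicate 1 and 2666 in replicate 2.

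A further optimal peak lay just past the end of cki-1 and outside the promoter window (chrII:7812236-7812711). Its summit at 7812474 was 369 bp beyond the annotated 3' end and 1234 bp from the 5' end. The pooled signal was 181 (rank 340), slightly above that of the promoter peak. It ranked 154 in replicate 1 (signal 79.1) and 441 in replicate 2 (115.1), so which of the pair was stronger differed between replicates. The nearest noncoding gene, T05A6.17, was 129 bp from the summit. Optimal peaks thus lay on both sides of cki-1.

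At cki-2 the only pooled region in the window lay 816 bp upstream of the nearest 5' end, with a signal of 39.5 and a −log10 q of 0.03. Neither replicate had a region in the window. The gene has 5 annotated 5' ends and the value was the same from the outermost end alone. A stronger region between the inhibitor genes, 2428 bp upstream of cki-2 (pooled signal 96.1, rank 2172), was outside both promoters.

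The cki-1 and cki-2 upstream sequences are shown together because these neighbouring inhibitor genes had ranks far apart. Each is the 250 bp before the outermost 5' end on the plus strand (chrII:7810990-7811239 and chrII:7816249-7816498). The third sequence is the summit of the peak beyond the 3' end of cki-1 (chrII:7812424-7812524, plus strand). Capitals have the meaning given for efl-1.
cki-1: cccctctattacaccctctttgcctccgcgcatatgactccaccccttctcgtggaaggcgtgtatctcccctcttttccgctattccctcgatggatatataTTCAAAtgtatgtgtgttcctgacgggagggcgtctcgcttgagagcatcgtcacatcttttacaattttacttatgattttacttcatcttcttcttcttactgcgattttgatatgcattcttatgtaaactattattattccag
cki-2: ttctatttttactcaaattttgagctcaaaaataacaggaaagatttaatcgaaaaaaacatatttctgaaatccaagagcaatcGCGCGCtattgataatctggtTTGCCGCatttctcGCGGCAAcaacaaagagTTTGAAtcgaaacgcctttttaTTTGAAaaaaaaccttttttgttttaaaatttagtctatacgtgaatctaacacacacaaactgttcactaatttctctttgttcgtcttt
cki-1 downstream: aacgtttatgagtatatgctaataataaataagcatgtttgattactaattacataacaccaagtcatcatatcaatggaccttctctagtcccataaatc
The weakly ranked cki-2 promoter held 2 copies of TTGCCGC on opposite strands, 141 and 127 bp upstream of the 5' end, as well as GCGCGC and TTTGAA. None of the 4 E2F-type strings was in the cki-1 promoter (the 300 bp from 250 bp upstream to 50 bp downstream), which held TTTGAA 39 bp from the summit. The summit window at the cki-1 promoter had 48.5% G and C, close to the 49.5% median of the optimal summits (SD 8.53 percentage points). The window beyond the 3' end had 29.7%, below that median. The downstream window held none of the 8 strings.

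Cyclin D and its kinase had similar pooled ranks and a wide gap between replicates. The cdk-4 region lay 201 bp upstream of the 5' end on chromosome X, with a pooled signal of 84.7 and a −log10 q of 0.57. It ranked 11493 in replicate 1 (signal 23.9) and 3275 in replicate 2 (61.3), yet its summits in the replicates were 5 bp apart. The gene F18H3.1, on the opposite strand with its 5' end 752 bp away, shared the region. The cyd-1 region had a pooled signal of 84.0 and a −log10 q of 0.56. It ranked 12363 in replicate 1 (signal 23.3) and 1800 in replicate 2 (72.3), with summits 245 bp apart, and whether these mark the same site was not tested. In all, 5 of the 6 genes with a promoter region in each replicate ranked higher in replicate 2, against 53.3% of the 4924 such protein-coding genes.

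The annotation of cyd-1 decided where its promoter was. The gene has 2 annotated 5' ends, and the pooled region lay 154 bp upstream of the inner end, in an intron of the longer transcript. No pooled region lay in the window of the outer end. Stronger regions lay outside both windows. An intronic region (chrII:12985858-12986333) ranked 665 with a signal of 138.3 and was 2127 bp upstream of the inner 5' end. Replicate 2 ranked it 431 (signal 115.9), while the regions of replicate 1 that overlap it had ranks 11822 and 12530. Another region, 1863 bp upstream of the outer 5' end, had a pooled signal of 125.5 and rank 863, with ranks of 2413 in replicate 1 and 1193 in replicate 2.

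The summit of the cdk-4 promoter region and that of the cyd-1 intronic region outside both windows are shown because both hold AGAGCG, read here on the opposite strand as CGCTCT. Each is 101 bp centred on the pooled summit, on the strand of the gene (cdk-4, chrX:13519062-13519162, minus strand; cyd-1 intron, chrII:12986046-12986146, plus strand).
cdk-4: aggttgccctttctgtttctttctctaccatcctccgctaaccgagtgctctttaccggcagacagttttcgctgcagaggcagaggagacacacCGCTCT
cyd-1 intron: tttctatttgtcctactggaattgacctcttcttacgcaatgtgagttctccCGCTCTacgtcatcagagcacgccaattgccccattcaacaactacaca
The summits of the cyd-1 promoter region and of the upstream region at rank 863 did not hold it. At cdk-4 the match lay 48 bp from the summit, at the edge of the window. This string was in 14.5% of the windows at the 642 optimal summits and in 3.01% of those at the 30000 pooled summits. It was chosen with earlier results of these same peaks known, so its higher share at the optimal summits is not independent of that choice. In the 300 bp promoters it was present at 2 of the 9 genes, lin-35 and cdk-4, and in 6.67% of all promoters. A match describes the letters and does not show a bound site.

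Cyclin E and its kinase were far apart in rank. At cye-1 the pooled promoter region had a signal of 138.4 and a −log10 q of 2.01, with its summit 521 bp upstream of the outermost 5' end. It ranked 2730 in replicate 1 (signal 35.0) and 528 in replicate 2 (107.9), with summits 100 bp apart. Replicate 2 alone would place it among the strongest 642. The summit was closer to pqn-21, a gene on the opposite strand whose nearest 5' end was 127 bp away, than to cye-1. Between the end of the optimal list and this region, the best promoter regions of 12 genes were found, cye-1 and pqn-21 included. At cdk-2, which encodes the catalytic partner, replicate 2 alone had a region in the window, 73 bp upstream of the 5' end at rank 29296 (signal 27.7).

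A tRNA gene inside cye-1 carried far stronger signal than its promoter. The optimal peak at chrI:6781701-6781948 had its summit in an intron of cye-1, 980 bp downstream of the nearest 5' end and 17 bp from the gene C37A2.t1. Its pooled signal was 467.5 (rank 29), and it ranked 17 in replicate 1 (signal 160.4) and 37 in replicate 2 (309.0). A second optimal peak, with its summit 203 bp away, had a signal of 155.3 and rank 484. These peaks lay outside the promoter window and were not counted for cye-1. The cye-1 promoter region was 1525 bp from the same tRNA gene.

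**Figure D3:**
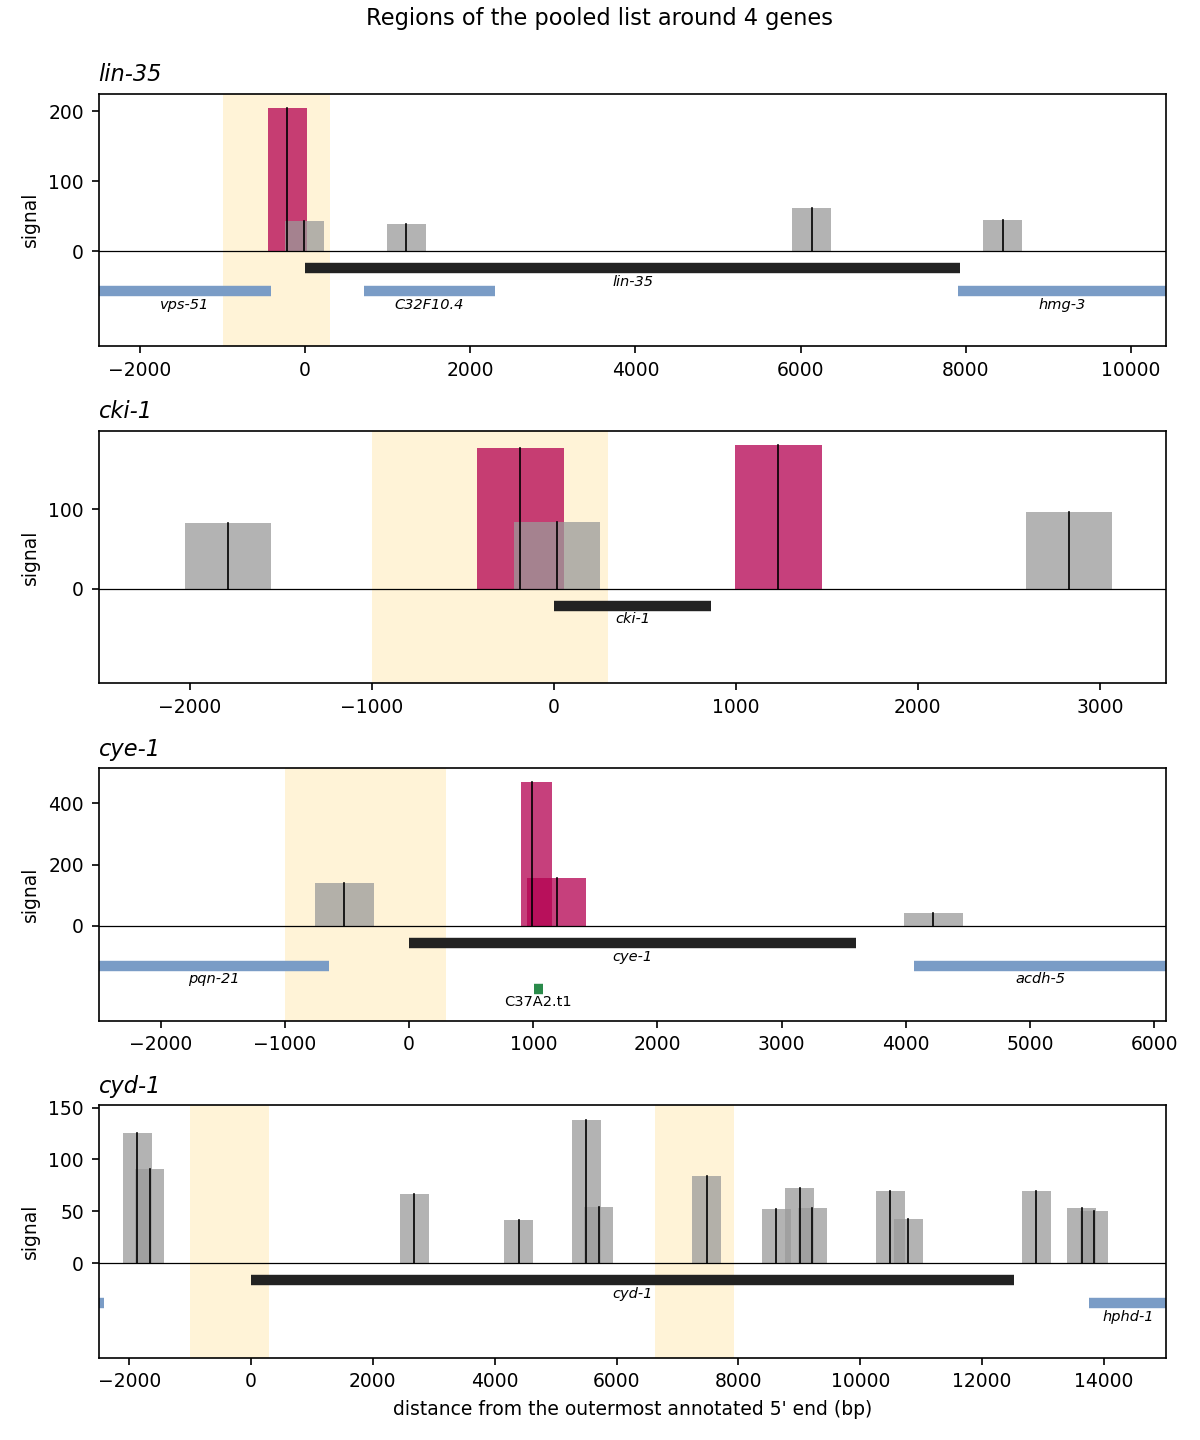
Regions of the pooled list (boxes, with the summit as a black line) around lin-35, cki-1, cye-1 and cyd-1, with signal on the y axis and distance from the outermost 5' end in bp on the x axis. Red boxes are in the optimal list and grey boxes are not, promoter windows are shaded, and bars below are the gene (black), other protein-coding genes (blue) and a tRNA gene (green). The tallest box at cye-1 (signal 467.5) stands at the tRNA gene C37A2.t1, outside the shaded window.

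E2F-type strings were present in the 300 bp promoters of 4 of the 9 genes (efl-1, cki-2, cyd-1 and cdk-2), against 9.19% of all protein-coding promoters. For cyd-1 this window is at the outer 5' end, 7543 bp (from string to summit) from the ranked region at its inner end. For cki-2 the strings were 675 and 689 bp from the summit of its only pooled promoter region, and cdk-2 had no such region. The efl-1 string was 99 bp from the summit. The 2 genes with an optimal peak, lin-35 and cki-1, held none in that window. The string TTCCCGC was in 3 of them (efl-1, cyd-1 and cdk-2), against 3.22% of all promoters, and GCGCGC was in lin-35, efl-1 and cki-2, against 3.57%. TTTGAA was in each promoter other than that of lin-35, and in 62.5% of all promoters. In the 101 bp windows at the best pooled summits it was at efl-1, cki-1 and cye-1. It was in 12.3% of optimal summit windows and 21.3% of pooled summit windows. At the pooled summits themselves (101 bp), E2F-type strings occurred at cye-1 only, where TTGCCGC was 5 bp and TTCGCGC 14 bp from the summit. Such strings were in 7.32% of optimal summit windows and 5.35% of pooled summit windows. These distances at cye-1 hold for the pooled summit, from which the summit of replicate 1 was 124 bp away and that of replicate 2 24 bp.

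Genes of 5 other lists, 1 of which holds transcriptional and other cyclins and kinases, had an optimal promoter peak at a share near that of all genes. In 5 lists covering 88 genes, 1 gene (1.14%) had one, beside 1.85% of all protein-coding genes, and from replicate 1 alone 2 genes (2.27%) did so, beside 1.51%. That gene was cdk-9, a kinase that acts in transcription elongation, with a signal of 159 (rank 455, replicate ranks 482 and 536) and its summit 113 bp upstream of the 5' end. No optimal promoter peak was found among 12 genes of the DREAM complex (the LIN-35 repressor complex) and its synMuv B partners, 19 genes of G1 and G2 phosphatases, kinases and ubiquitin ligases, 29 of replication licensing and S phase or 16 of mitotic cyclins, kinases and checkpoint. The only one of these lists with an optimal promoter peak was that of the 12 transcriptional and other cyclins and kinases, which holds cdk-9. LIN-35, EFL-1 and DPL-1 are encoded by genes counted with the G1 to S genes and left out of the DREAM list. Of those left out, lin-35 had an optimal promoter peak (rank 262), so the DREAM count does not cover it. The DREAM list did count efl-2, which had no such peak.

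Of the 88 genes, 54 had a pooled promoter region, against 7659 of all 19973 protein-coding genes (38.3%). Genes that share a region were each counted. Those below the optimal list ranked from 981 (orc-5) to 29937 (lin-15B, named after its value was seen). In the DREAM list the strongest regions were at lin-53, a histone-binding subunit (pooled rank 2304, signal 94.7), and lin-54, the DNA-binding subunit (2934, 88.8). The kinase gene wee-1.3, which restrains CDK-1, ranked 1085 (signal 117) and fzr-1, an activator of the anaphase-promoting complex, 1839 (signal 100.5). Replicate 2 ranked wee-1.3 far higher (819) than replicate 1 did (19222), and the same held for lin-53 (2632 against 11983). The order was reversed at lin-54 (3731 in replicate 1 against 4177 in replicate 2), orc-5 (664 against 1496) and san-1 (2842 against 4645). A wide gap in that direction was present at cyb-1 (2471 in replicate 1 against 25257 in replicate 2), a gene named after its values were seen. Of the replication genes, orc-5 of the origin recognition complex ranked 981 (signal 120.9) and the primase gene pri-2 1037 (signal 119). The spindle checkpoint genes mdf-1 and san-1 ranked 1760 (signal 102) and 2083 (signal 97.0). In the last list, cdk-7 ranked 4223 (signal 80.6), and cit-1.1 and cit-1.2, which encode cyclin T, shared a single region at 4982 (signal 76.8), which ranked 2957 in replicate 2 and 19698 in replicate 1. A pooled region within rank 5000 was present at 20 of the 88 genes (22.7%), against 10.1% of all genes. The count for the G1 to S genes was 6 of 9 (66.7%). This limit was chosen after the ranks were seen, and the genes were picked with earlier results of these data known. Nothing is therefore read from the differences.

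**Figure D4:**
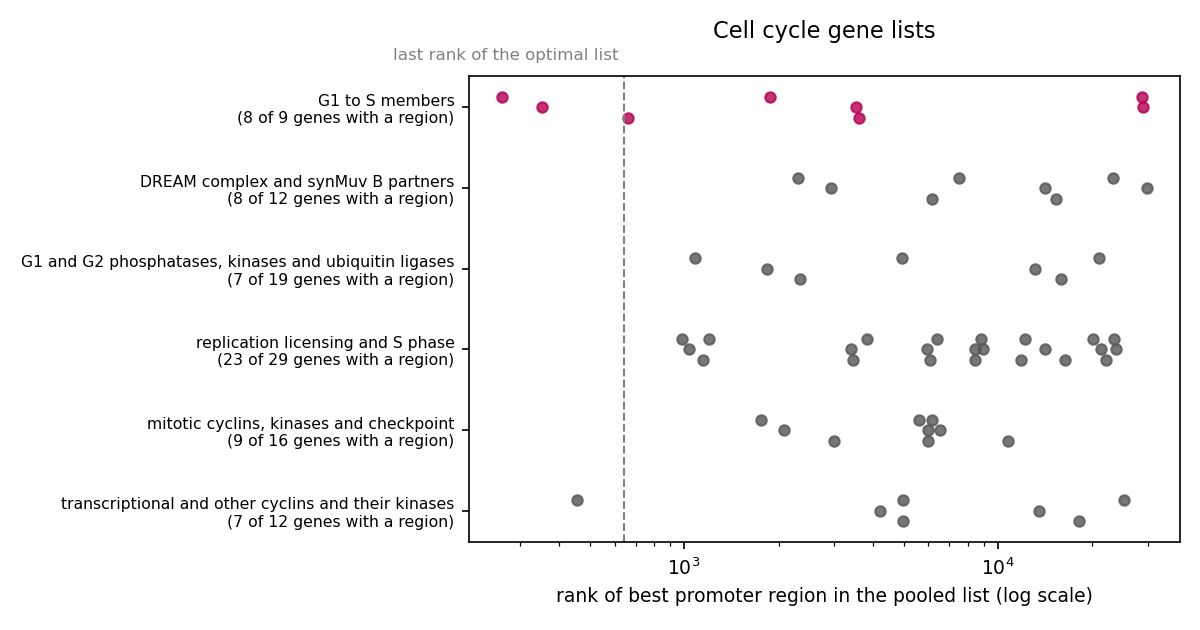
Rank of the strongest promoter region in the pooled list (x axis, log scale) for each gene of the 9 G1 to S genes (red) and of the 5 other lists (grey), with genes that had no region left out. Left of the dashed line, at rank 642, are lin-35, cki-1 and, in the bottom list, cdk-9 at rank 455.

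Genes outside these lists with the most similar replicate signals were also found. Likeness was the sum, over the 2 replicates, of the absolute log2 ratio of signals within a replicate, and genes with a small RNA gene near the summit were left out. For lin-35, vps-51 had the same region and a sum of 0, and mgrn-1 (0.091, pooled rank 288) and W03F8.4 (0.101, rank 293) came next. For cki-1 they were icd-2, which encodes a subunit of the nascent polypeptide-associated complex (0.049, rank 326), and mdt-26, a Mediator subunit gene, with ift-43, which shares its region (0.07, rank 490). Likeness over 2 values says only that the replicate signals were alike.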

How the data were processed

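Chromatin immunoprecipitation with an antibody to GFP was sequenced in 2 biological replicates of a single group. Per the deposited descriptions of the files, the authors made a list of peaks and background regions from each replicate with a control alignment, a further list from both alignments pooled, and an optimal list by IDR thresholding. The ce11 lists were used. The authors' signal value of each region, whose scale is not stated, was ranked within each list, and the deposited −log10 q value was printed as a description. The sources used here do not name a peak caller, an aligner or an IDR threshold. Without read counts the depth behind a region is unknown, and counting intervals are left out.

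Summits were placed against 5' ends of protein-coding transcripts of Ensembl release 115 (assembly WBcel235, the sequence of ce11) with Python 3.11.15, numpy 2.4.6 and pandas 2.3.3. Small RNA genes were tRNA, snoRNA and snRNA genes of Ensembl and tRNA pseudogenes of RefSeq. The window assignment was tested on simulated positions with known answers. Coordinates are 1-based. The ce10 lists were not used here.

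The genes, the 5 other lists and the strings were chosen with earlier results of these data known. Named genes were the 9, any gene of the other lists with an optimal promoter peak, the 2 best ranked of each list among the rest (a tie gave both), the 3 most like lin-35 and cki-1, and neighbouring genes. Alternatives were other windows, overlap in place of summits, the outermost 5' end, nearest-gene assignment, stricter peak sets and each replicate alone.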

Additional observations from a re-analysis of the deposited data

How the results depend on the processing

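The 2 genes with an optimal promoter peak, lin-35 and cki-1, were also the 2 with a window of 500 bp upstream to 100 bp downstream, with 2000 bp to 500 bp, by overlap of the region, and from the outermost 5' end only. All genes with such a peak were 1.24%, 2.67%, 2.19% and 1.64% under these settings. The count was 1 when each peak went to its nearest 5' end (cki-1, since 1 of the vps-51 5' ends is the closest to the lin-35 summit). It was also 1 in the stronger 321 peaks (lin-35) and 1 in the 398 peaks that overlap one of the 642 strongest regions of each replicate (cki-1). From a single replicate it ran from 1 (replicate 1: cki-1) to 3 (replicate 2: lin-35, cki-1 and cye-1). Of the 88 genes in the other lists, 0 had a peak in the stronger 321 and 1 to 2 did so from a single replicate (mcm-7, named after its values were seen, joined cdk-9 in replicate 1). The count over all genes was 285 (1.43%) by nearest 5' end, 188 (0.941%) in the stronger 321 peaks, 221 (1.11%) in the 398, 302 (1.51%) from replicate 1 and 382 (1.91%) from replicate 2.

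Without replicate 2, the rank was 914 for lin-35, 2730 for cye-1, 8934 for dpl-1, 11493 for cdk-4 and 12363 for cyd-1. With the wide window dpl-1 ranked 13038 and cyd-1 863. With the outermost 5' end only, cyd-1 had no pooled region and no value, and with the window of 500 bp to 100 bp cye-1 and cki-2 had none. The cause was not tested. No paired analysis was possible because there is a single group.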
